A study of Mus musculus with 2 samples.

Results

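The nuclear genes of the mitochondrial respiratory chain and ATP synthase were compared between control and Eomes-overexpressing CD8+ T cells. Members were chosen by gene symbol (names starting with Nduf followed by a, b, c, s or v and a number, with Uqcr, with Cox followed by a number from 4 to 8, or with Atp5) and selected on an FPKM (mapped fragments per gene, scaled to transcript length and library depth) of at least 1 in either library. Of 76 symbols with such a name, 73 met this minimum, among 9925 genes that met it and 14732 symbols listed in all. They comprised 36 genes named for complex I, 8 for complex III, 13 for complex IV and 16 for complex V, on 19 chromosomes. The minimum used the same values that are described here, so that the presence of these transcripts is not a finding. The members just inside it were Atp5s, at 1.89 FPKM in control and 1.82 FPKM with Eomes, and Cox7a1, at 3.07 and 2.79 FPKM. The symbols just outside it were Cox4i2, at 0.14 FPKM in control and not listed in Eomes-overexpressing cells, Ndufa4l2, at 0.05 and 0.10 FPKM, and Cox6a2, not listed in control and at 0.08 FPKM in Eomes-overexpressing cells.

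The respiratory chain passes electrons from NADH and succinate to oxygen and pumps protons out of the mitochondrial matrix, and ATP synthase uses the returning protons to make ATP. Complex I oxidises NADH, complex III passes electrons from ubiquinol to cytochrome c, complex IV hands them to oxygen, and complex V is the ATP synthase. Most subunits are encoded in the nucleus and imported, whereas a few that lie in the membrane core of complexes I, III, IV and V are encoded by mitochondrial DNA. CD8+ T cells that are activated by antigen raise both glycolysis and mitochondrial respiration, and loss of mitochondrial function has been described in exhausted T cells.

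The study asked how overexpression of Eomes, a T-box transcription factor linked to both effector function and exhaustion, changes the transcriptome of CD8+ T cells. Both groups were CD8+ T cells isolated from the spleens and lymph nodes of C57BL/6 mice that were OT-I transgenic and aged 6 to 8 wk, so that their T cell receptor recognised a peptide of ovalbumin. The cells of both groups were stimulated for 24 hr with 2.5 ng/mL peptide and 10 U/mL IL-2, infected with a retrovirus that carries human CD2 as a surface marker, and sorted for hCD2 48 hr later. They were then plated at 40000 cells per well and stimulated again for 3 days with the same peptide and IL-2. The control group carried the vector without an insert and the Eomes group carried the vector with Eomes. Values with Eomes are those of the Eomes library. Each group was 1 bulk RNA library, so that no difference below has a replicate check or a p-value, and fewer expressing cells cannot be told apart from less RNA per cell. Vector expression was driven by the retrovirus in already activated cells, and the number of mice behind each library is not given in the sources used here.

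Eomes itself was 2.47 FPKM in control and 129.64 FPKM in the Eomes library, 52.5-fold higher with the Eomes vector. From the step between the lowest FPKM values, the depth was about 19.1 M reads in control (interquartile range over low genes 18.1 to 20.6 M) and 18.9 M reads in the Eomes library (18.0 to 20.3 M). All 8 CD8 T cell markers examined were present, with summed values of 1539.61 FPKM in control and 1158.83 FPKM with Eomes, and each of the 8 was lower with Eomes (log2 ratios from -0.88 for Cd8a to -0.14 for Lck). Of 20 markers of CD4 T cells, B cells, myeloid, dendritic and erythroid cells, 3 reached 1 FPKM (Cd79b, Cd14 and Xcr1), and 7 were listed in neither library, among them Ms4a1, Pax5, Lyz2, Csf1r and Adgre1. Their summed level was 6.97 FPKM in control and 4.66 FPKM with Eomes, and the part of this difference in the values below was not tested.

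The promoters of these genes are shown first, because the respiratory chain genes share known regulators and differ in how widely they are used. NRF1 (nuclear respiratory factor 1) and GABP, an ETS factor, are known to bind promoters of nuclear respiratory genes. RefSeq promoter windows (GRCm38.p6, from 250 bases before to 50 bases after the gene start) were found for 63 of 73 members, 2 of them under the newer symbol that RefSeq uses. The exact NRF1 core GCATGCGC was searched on both strands and was held by 9 of 63 members (14.3%), compared with 6.8% of 7940 expressed genes and 3.0% of 27025 genes with a window. In 7 of these 9 it lay before the gene start. The 7 stretches are given here 5' to 3' on the strand of the gene, with the core in capitals, to show how alike or unlike their flanks are.
Atp5g2: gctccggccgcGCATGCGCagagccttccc
Atp5k: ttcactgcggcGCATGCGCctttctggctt
Atp5l: aaccaataacGCATGCGCatttcccccac
Cox6a1: aggaacggggcGCATGCGCgctctcgctcc
Ndufa11: ctgcactgcgcGCATGCGCgcacgccttgt
Ndufa6: tccgcggtagaGCATGCGCattgcagagcc
Ndufa8: tcgctggagacGCATGCGC
These stretches lie at chr15:102671069-102671098 (minus strand) for Atp5g2, chr5:108434429-108434458 (minus strand) for Atp5k, chr9:44920964-44920992 (minus strand) for Atp5l, chr5:115349100-115349129 (minus strand) for Cox6a1, chr17:56717693-56717722 (plus strand) for Ndufa11, chr15:82354356-82354385 (minus strand) for Ndufa6 and chr2:36049339-36049357 (minus strand) for Ndufa8. In Atp5g2, Atp5k, Cox6a1 and Ndufa11 the core extends to the palindrome GCGCATGCGC, which holds the core on both strands and was counted once. The 7 genes belong to complexes I, IV and V, and their log2 ratios of Eomes-overexpressing over control ran from -0.21 (Atp5k) to 0.10 (Ndufa6).

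Other motifs were at or below their share in expressed genes, apart from YY1. The ETS core CCGGAAG was held by 14 of 63 members (22.2%) and 23.1% of expressed genes, and the GC box GGGCGG, which Sp1 binds, by 25 members (39.7%) and 71.1% of expressed genes. The YY1 core ATGGCGG was held by 10 members (15.9%) and 10.7% of expressed genes. Of these 10 members 8 belonged to complex I, as did 36 of all 73 members. TATAAA was held by 5 members (7.9%) and 7.9% of expressed genes. The T-box core GGTGTGA, the kind of sequence that Eomes binds, was held by 0 of 63 members and by 4.1% of expressed genes, which says only that these letters are not in these windows. No motif searched contains another. The median GC content of the windows was 57.3% in members and 61.0% in expressed genes. Median log2 ratios of members with and without each motif were -0.087 and -0.067 for NRF1, -0.075 and -0.067 for ETS, and -0.0059 and -0.069 for YY1.

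Summed over the 73 members, expression was 15907.29 FPKM in control and 15264.75 FPKM with Eomes, or 2.83% and 2.78% of all FPKM in the library. Atp5b, the catalytic beta subunit of ATP synthase, was the member with the highest value, at 1268.21 FPKM in control and 1183.2 FPKM with Eomes. Complex V genes had a median of 305.38 FPKM in control, complex IV genes 345.8 FPKM, complex III genes 183.31 FPKM and complex I genes 116.25 FPKM. Of the 73 members, 55 had a mean of at least 100 FPKM over both libraries, and 3 stayed under 10 FPKM in both. The order of the levels was nearly the same in both libraries, with a Spearman correlation of 0.992 across the 73 genes, which share 1 library pair and are not replicates.

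**Figure D1:**
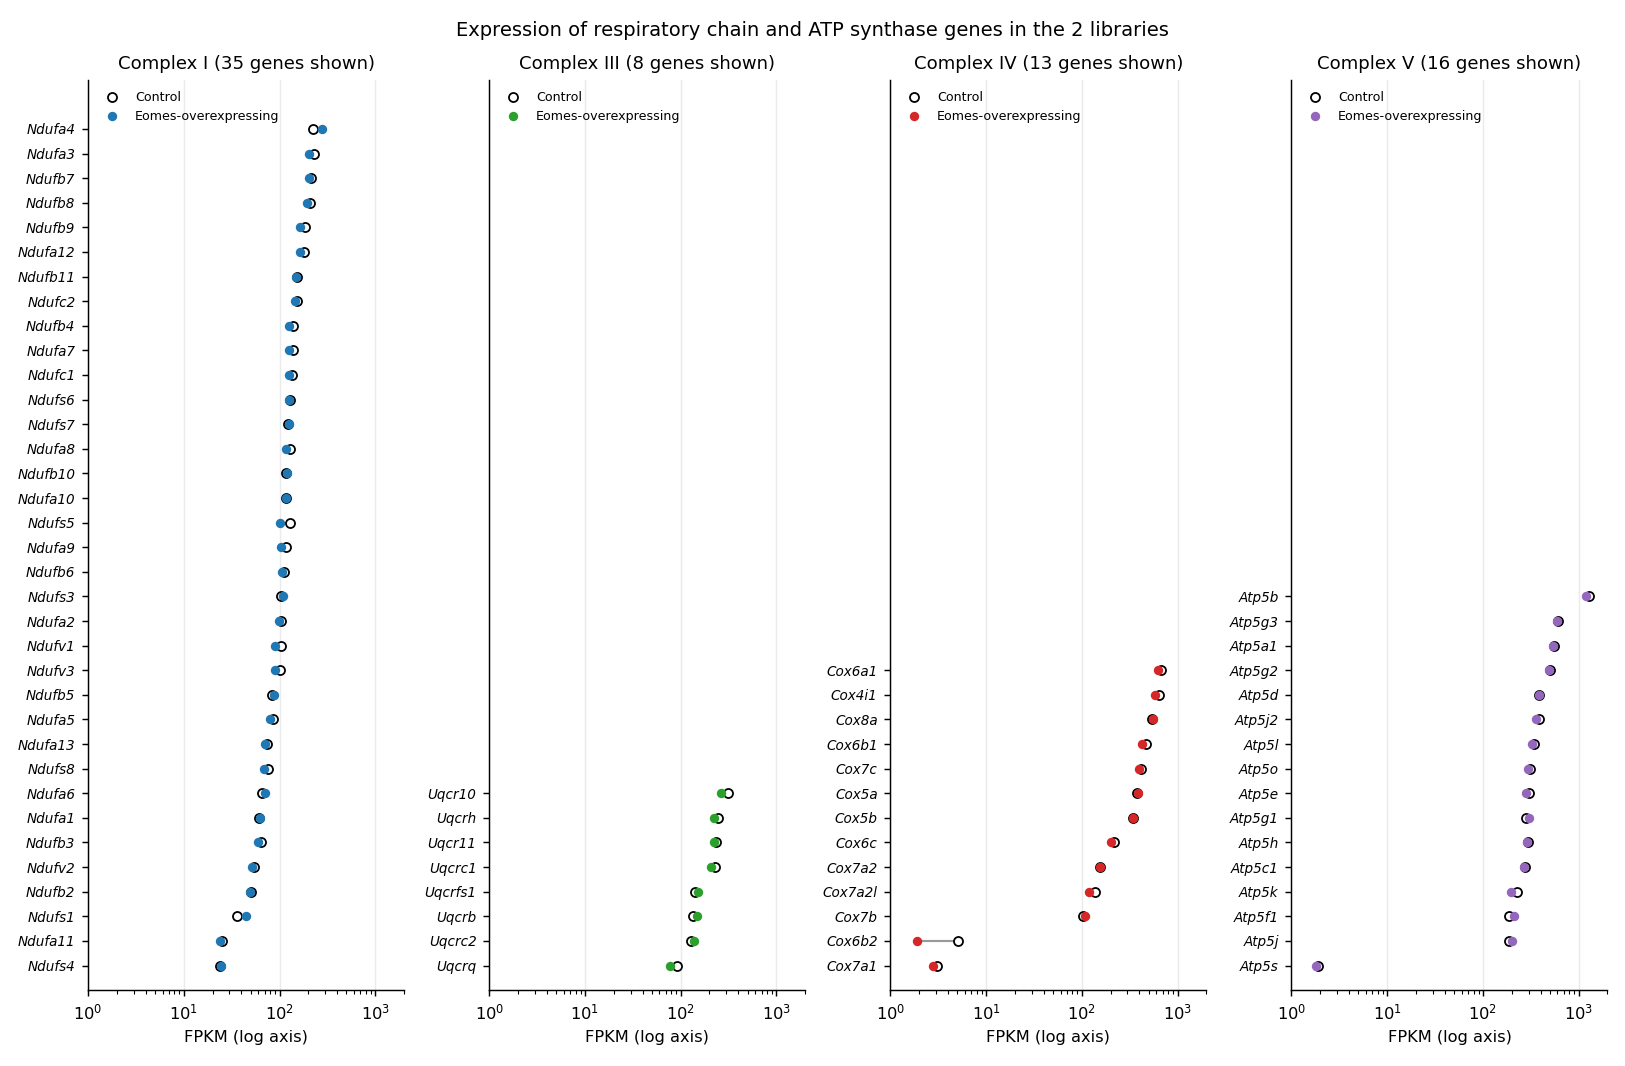
FPKM of 72 of the 73 members on a log axis, by complex and ordered by mean level, with an open circle for the control library and a filled circle for the Eomes library. Most pairs of circles overlap, and the pair of Cox6b2, at 5.12 and 1.91 FPKM, is the farthest apart.

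Overexpression of Eomes went with small differences of these genes, most of them towards lower values. Of 73 members, 54 (74.0%) were lower and 19 higher in Eomes-overexpressing cells, where 50.5% of all 9925 expressed genes were lower. The median log2 ratio of Eomes-overexpressing over control was -0.069, compared with -0.0037 over all expressed genes, and turned to 0.0065 when each ratio was centred on genes of similar transcript length. Among the 55 members with a mean of at least 100 FPKM, 41 (74.5%) were lower with a median log2 ratio of -0.067, where 59.2% of all 910 genes at that level were lower with a median of -0.029. The interquartile range of the members ran from log2 ratios of -0.13 to 0.012.

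Differences past a set fold were few. Only Cox6b2 was over 1.5-fold lower, and 0 of 73 members were over 1.5-fold higher. Of all expressed genes, 5.19% were over 1.5-fold lower and 2.46% over 1.5-fold higher, and of genes at a mean of at least 100 FPKM, 0.989% and 0.33%. At 1.2-fold, 3 members were lower (Cox6b2, Ndufs5 and Uqcr10) and 2 were higher (Ndufs1 and Ndufa4), while 15.2% of all expressed genes were lower and 14.9% higher by that margin. Among the 55 members with a mean of at least 100 FPKM, 2 were over 1.2-fold lower and 1 was higher, where all genes at that level gave 7.47% lower and 3.85% higher. Thus 68 of 73 members (93.2%) lay within 1.2-fold, as did 6945 of 9925 expressed genes and 88.7% of genes at a mean of at least 100 FPKM. The SD of the log2 ratio across members was 0.20, and 0.12 without Cox6b2. In mm10, the 5 genes past 1.2-fold lie at chr7:4751792-4753094 (Cox6b2, minus strand), chr4:123712710-123718202 (Ndufs5, minus strand), chr11:4701973-4704342 (Uqcr10, minus strand), chr1:63143596-63176833 (Ndufs1, minus strand) and chr6:11900292-11907497 (Ndufa4, minus strand), and their values cover the exons of the transcript.

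**Figure D2:**
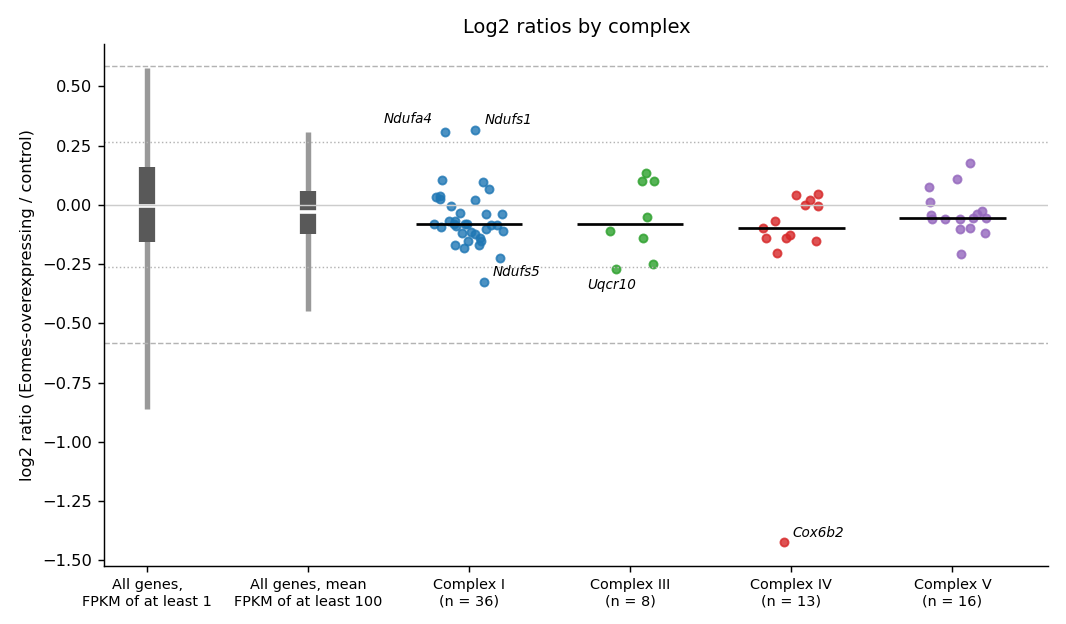
Log2 ratio of Eomes-overexpressing over control for each member by complex (points, with the median as a black line), beside all 9925 expressed genes and the 910 genes at a mean of at least 100 FPKM (thin bar, central 95% of genes; thick bar, interquartile range; white line, median). Dotted lines mark 1.2-fold and dashed lines 1.5-fold, and Cox6b2, at -1.42, is the member past 1.5-fold.

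Log2 ratios of complex I genes ran from -0.32 to 0.32. Of the 36 genes, 27 were lower and 9 were higher, and their median log2 ratio of -0.082 became 0.0013 after centring on transcript length. Of the 7 core subunits, which carry the flavin and iron-sulfur clusters and the ubiquinone site, 4 were lower and 3 higher. Ndufs1, the largest core subunit, was 36.26 FPKM in control and 45.19 FPKM with Eomes, a log2 ratio of 0.32 (95% counting interval 0.23 to 0.41). Ndufv1, the flavin-bearing subunit that binds NADH, was 104.48 and 89.48 FPKM, a log2 ratio of -0.22 (interval -0.30 to -0.15). These 2 subunits lie in the same arm of the enzyme and stood at opposite ends of the core set.

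Other core subunits lay closer to equal values. Ndufv2 was 53.87 and 51.41 FPKM and Ndufs8 75.9 and 68.29 FPKM, in control and Eomes-overexpressing cells in that order, so that both were lower with Eomes. Ndufs3 was 104.77 and 109.67 FPKM and Ndufs7 121.34 and 124.64 FPKM, both slightly higher with Eomes. The counting intervals used here (Clopper-Pearson, from approximate reads) cover counting error only and compare 2 libraries, not 2 conditions.

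Of 29 accessory members of complex I, which surround the core and are needed for its assembly and stability, 23 were lower and 6 higher. Ndufs5, which faces the intermembrane space, was 127.61 FPKM in control and 101.96 FPKM with Eomes, a log2 ratio of -0.32 (interval -0.44 to -0.20), the lowest of complex I. Ndufa9 was 116.3 and 102.65 FPKM, a log2 ratio of -0.18. In the other direction, Ndufa6 was 66.36 and 71.34 FPKM, a log2 ratio of 0.10. Ndufa4 was 224.97 FPKM in control and 278.21 FPKM with Eomes, a log2 ratio of 0.31 (interval 0.23 to 0.38). Ndufa4 is named for complex I but is known as a subunit associated with complex IV, and it had the highest mean of both libraries among the 36 genes. By that mean Ndufa3, at 227.43 and 204.59 FPKM, and Ndufb7, at 215.52 and 203.69 FPKM, came next, both lower with Eomes.

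Among the 8 complex III genes, 5 were lower and 3 were higher. Their median log2 ratio was -0.079 (-0.0038 after centring on transcript length). The small subunits held the lowest ratios. Uqcr10 was 314.98 FPKM in control and 261.12 FPKM with Eomes, a log2 ratio of -0.27 (interval -0.35 to -0.19), and Uqcrq was 92.25 and 77.61 FPKM, a log2 ratio of -0.25. Uqcrh, the hinge protein at cytochrome c1, was 246.81 and 224.28 FPKM and Uqcr11 was 233.34 and 225.47 FPKM. Uqcrb, another small subunit, went the other way at 134.21 and 147.09 FPKM, a log2 ratio of 0.13.

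The core proteins of complex III were split before centring on GC content. Uqcrc1 was 226.22 FPKM in control and 209.72 FPKM with Eomes, a log2 ratio of -0.11, whereas Uqcrc2 was 128.37 and 137.76 FPKM, a log2 ratio of 0.10. Uqcrfs1, the Rieske iron-sulfur protein that takes electrons from ubiquinol, was 140.4 and 150.57 FPKM, a log2 ratio of 0.10. After centring on genes of similar GC content the ratios of Uqcrc2 and Uqcrb turned to -0.046 and -0.045, and that of Uqcrfs1 was 0.082. The ratio of Uqcrc1 was then -0.022, so that both core proteins were slightly lower. Centring on transcript length instead kept them split, with Uqcrc1 at -0.046 and Uqcrc2 at 0.14, and Uqcrb was then 0.22. The 2 centrings thus gave different results. Cyc1, the cytochrome c1 of this complex, which the symbol rule leaves out, was 257.04 and 254.15 FPKM.

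Complex IV genes were lower in 10 of 13 cases, with a median log2 ratio of -0.097 (-0.0092 after centring on transcript length). The 10 widely expressed subunits all lay within 1.2-fold, 7 lower and 3 higher. Cox4i1, the regulatory subunit that binds nucleotides, was 635.89 FPKM in control and 577.54 FPKM with Eomes, a log2 ratio of -0.14, and Cox6a1 was 665.2 and 621.89 FPKM, a log2 ratio of -0.097. Cox5a and Cox5b, nuclear subunits on the matrix side, were nearly equal, at 378.71 and 383.72 FPKM and at 345.8 and 344.69 FPKM. Cox8a was 542.23 and 558.65 FPKM and Cox7b 103.64 and 106.84 FPKM, the 2 highest ratios of the complex at 0.043 and 0.044.

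All 16 complex V genes lay within 1.2-fold, 12 of them lower and 4 higher. Their median log2 ratio was -0.056 and turned to 0.027 after centring on transcript length. In the catalytic F1 part, Atp5b had a log2 ratio of -0.10, Atp5a1 was 557.49 FPKM in control and 535.01 FPKM with Eomes, and Atp5c1, the rotating gamma subunit, was 278.52 and 270.47 FPKM. Atp5d, of the central stalk, was 385.81 and 388.97 FPKM. The 3 small membrane subunits were all lower, Atp5k at 229.45 and 198.86 FPKM (log2 ratio -0.21), Atp5j2 at 387.11 and 356.84 FPKM (-0.12) and Atp5l at 339.65 and 325.45 FPKM (-0.062).

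The peripheral stalk, which holds the F1 part still while the ring turns, was split in the uncentred ratios. Atp5f1 was 186.51 FPKM in control and 210.76 FPKM with Eomes, a log2 ratio of 0.18 (interval 0.12 to 0.23), the highest of complex V, and Atp5j was 189.01 and 199.32 FPKM. Atp5o was 308.23 and 296.19 FPKM and Atp5h 293.8 and 286.25 FPKM, both slightly lower (intervals -0.1154 to 0.0004 and -0.1061 to 0.0309). After centring on transcript length all of these stalk genes were higher, from 0.0305 (Atp5o) to 0.2143 (Atp5f1). After centring on GC content 3 were higher and 1 lower. Atp5s, a name match that is not a structural subunit, had the lowest FPKM of the 73 members in both libraries, with a log2 ratio of -0.054.

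**Figure D3:**
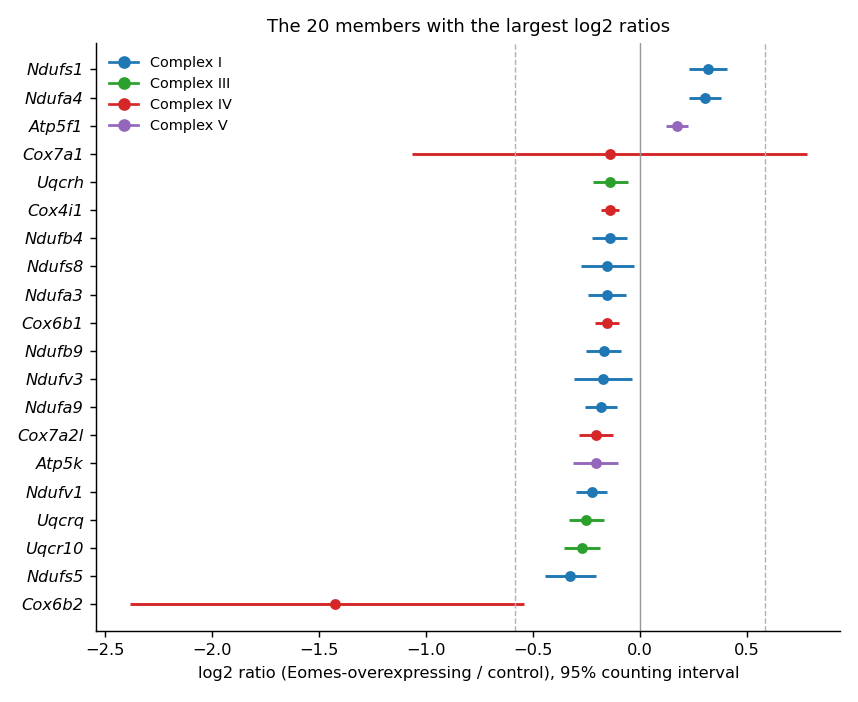
Log2 ratio of Eomes-overexpressing over control for the 20 members with the largest absolute ratios, coloured by complex, with 95% counting intervals from approximate reads. Dashed lines mark 1.5-fold. The intervals of Cox6b2 (-2.38 to -0.54) and Cox7a1 (-1.06 to 0.78) are the widest, and the other 18 lie inside the dashed lines.

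Several subunits of complex IV exist as pairs of paralogues, 1 used in most tissues and 1 in muscle, lung or testis. In these T cells each pair was carried by the widely expressed form. Cox6b1 was 470.71 FPKM in control and 423.11 FPKM with Eomes, a log2 ratio of -0.15, while Cox6b2, known as the testis form, was 5.12 and 1.91 FPKM. Cox6b2 thus supplied 1.08% of the Cox6b sum in control and 0.449% in Eomes-overexpressing cells. Its log2 ratio of -1.42 rests on about 41 reads in control and 15 in Eomes-overexpressing cells, and its counting interval of -2.38 to -0.54 reaches inside the 1.5-fold limit.

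The promoters of this pair are printed because the 2 genes code for versions of the same subunit and, among paralogues that both met the minimum, differ most in ratio. Each is the 250 bases before the RefSeq gene start on the strand of the gene, with a searched motif in capitals: the ETS core on the opposite strand in Cox6b1, which starts 28 bases before the gene start, and a GC box in Cox6b2, which starts 193 bases before it. Cox6b1 lies at chr7:30626115-30626364 (minus strand) and Cox6b2 at chr7:4753095-4753344 (minus strand), both in GRCm38.p6.
Cox6b1: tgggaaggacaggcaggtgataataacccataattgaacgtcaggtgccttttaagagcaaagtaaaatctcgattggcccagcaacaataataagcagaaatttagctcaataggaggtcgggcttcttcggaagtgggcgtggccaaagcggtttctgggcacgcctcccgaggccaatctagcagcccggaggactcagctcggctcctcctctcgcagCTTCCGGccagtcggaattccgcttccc
Cox6b2: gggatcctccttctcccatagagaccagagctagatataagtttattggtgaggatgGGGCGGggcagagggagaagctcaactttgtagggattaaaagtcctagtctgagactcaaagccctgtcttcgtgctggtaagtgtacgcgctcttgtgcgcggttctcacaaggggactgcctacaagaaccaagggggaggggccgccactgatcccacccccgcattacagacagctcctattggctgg
Neither window holds the NRF1, T-box or TATAAA sequence.

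Cox7a2 was 155.86 FPKM in control and 155.59 FPKM with Eomes, and its muscle paralogue Cox7a1, at 3.07 and 2.79 FPKM, made up 1.04% and 1.005% of the Cox7a sum. Cox7a2l, a relative known for joining complexes III and IV into supercomplexes, was 137.4 and 119.25 FPKM, a log2 ratio of -0.20 (interval -0.28 to -0.13). Whether it does so in these cells was not tested. Cox4i2, Cox6a2 and Ndufa4l2 stayed at or under 0.14 FPKM in both libraries, so that Cox4i1, Cox6a1 and Ndufa4 made up over 99% of their families. The 3 genes Atp5g1, Atp5g2 and Atp5g3 code for the same c-ring protein with different import sequences. Atp5g1 was 279.33 FPKM in control and 301.43 FPKM with Eomes, Atp5g2 502.51 and 493.61 FPKM, and Atp5g3 615.3 and 589.67 FPKM. The share of Atp5g1 in their sum was 19.99% in control and 21.8% with Eomes.

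**Figure D4:**
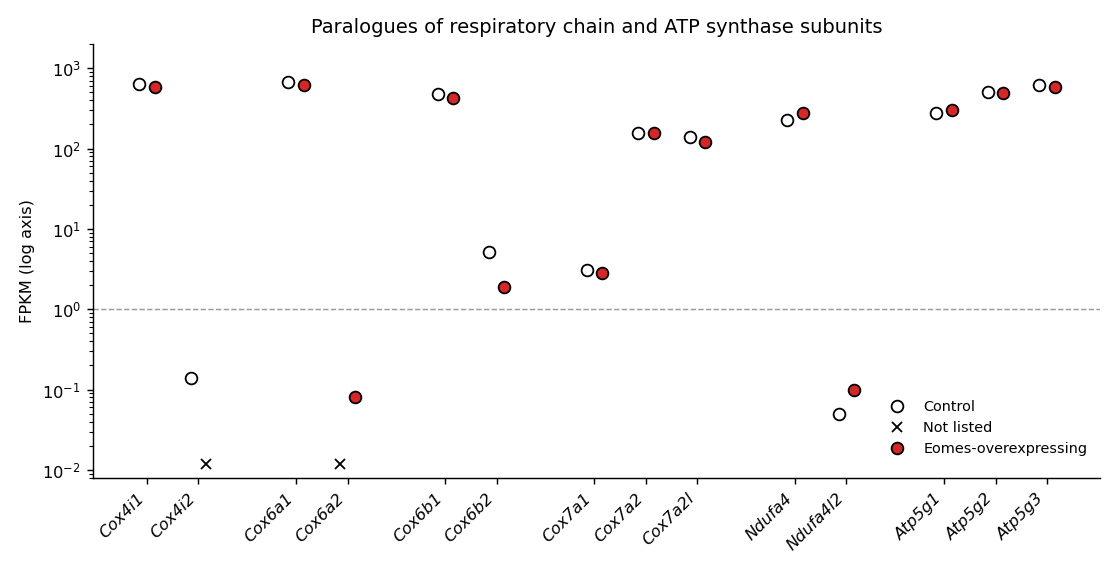
FPKM on a log axis of 14 genes in 6 paralogue families, with an open circle for control and a filled circle for Eomes-overexpressing cells; a cross at the foot marks a gene not listed in that library and the dashed line is 1 FPKM. In Cox4i, Cox6a, Cox6b and Ndufa4 a single gene holds nearly the whole family, while the 3 Atp5g genes lie within the same range.

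The small size of these differences was set beside 2 properties of the transcripts. The log2 ratio went down with GC content over 9835 expressed genes, with a Spearman correlation of -0.436, and over the 73 members with -0.287; the points share 1 library pair, and no test was made. Genes in the lowest of 20 GC bins had a median log2 ratio of 0.29 and those in the highest -0.090. Of the 9 members under 46% GC, 3 were lower and the median log2 ratio was 0.044, where 22.8% of 2680 expressed genes under 46% GC were lower with a median of 0.18. Of the 14 members of at least 56% GC, 11 were lower and the median was -0.089, where 70.3% of 1986 such genes were lower with a median of -0.096. Ndufs1 and Ndufa4 had 45.1% and 44.1% GC. Centred on genes of similar GC content, their log2 ratios were 0.21 and 0.16, both within 1.2-fold, and the median of all members was -0.028. Ndufs5 and Uqcr10 were then within 1.2-fold as well, at -0.23 and -0.18. The 3 members then over 1.2-fold lower were Cox6b2, Atp5s (-0.34) and Ndufv2 (-0.30).

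Transcript length moved with the ratio as well. The members were short, with a median length of 763 bases, compared with 2923 bases for expressed genes. Of 48 members under 1000 bases, 38 were lower with a median log2 ratio of -0.081. The 628 expressed genes of that length, which include these members, had a median of -0.089, and 69.3% of them were lower. Over the 4763 expressed genes of at least 3000 bases the median was 0.052. Centring on length gave a median of 0.0065 over all members and left 1 of them, Cox6b2, over 1.2-fold lower. It left 2 over 1.2-fold higher, Ndufa4 at a log2 ratio of 0.39 and Ndufs1 at 0.33. In these 2 genes centring on length and centring on GC content thus gave different results. The part of GC content and length in the lower values of the members was not tested beyond these 2 centrings.

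**Figure D5:**
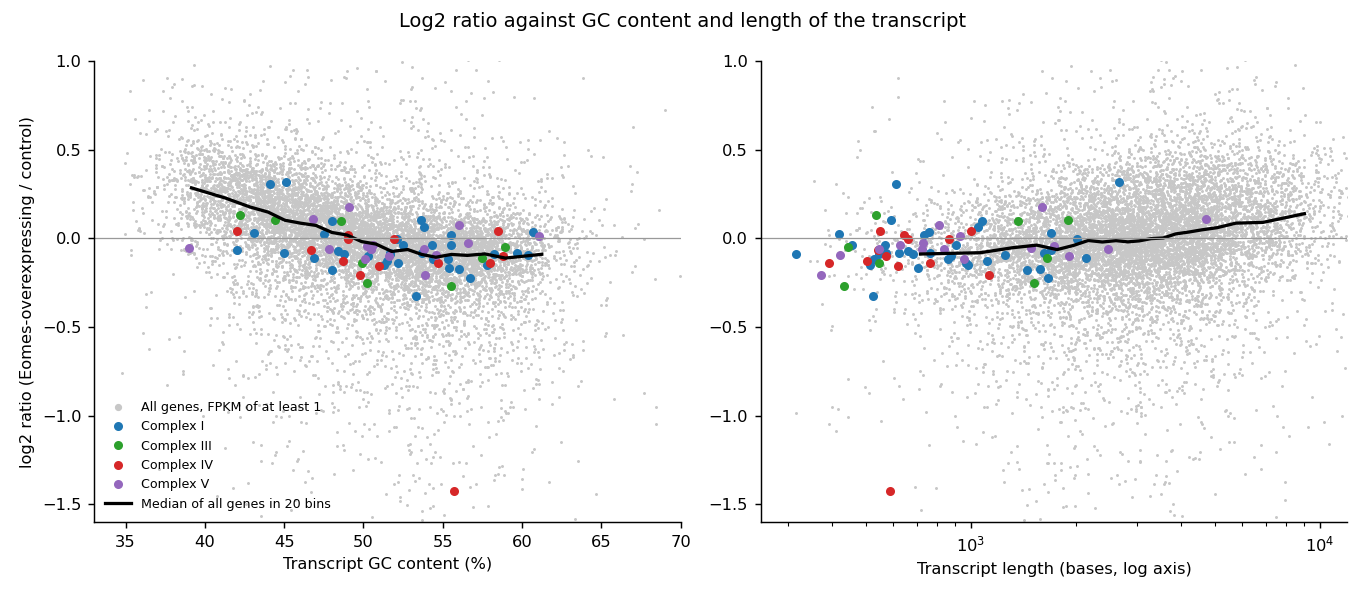
Log2 ratio of Eomes-overexpressing over control against transcript GC content in percent (left) and transcript length in bases on a log axis (right), for all expressed genes (grey) and members (coloured by complex); the black line joins the medians of 20 bins, and a few grey points lie beyond the axes. The line runs from 0.29 to -0.090 with rising GC content and from -0.088 to 0.14 with rising length, and members lie on both sides of it.

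Some values could hold reads of near copies of the gene or of genes that overlap it on the opposite strand. In 29 of 73 members, over 10% of the 50-base stretches of the transcript also occur, on either strand, in transcripts of other genes. Many of these are pseudogenes, and the share was highest in Atp5g2 (87.4%) and Atp5l (84.8%). Not all of the 29 have near copies. Ndufb6 (34.1%) and Uqcrc2 (24.8%) shared stretches only with an overlapping gene on the opposite strand, Smim27 and Pdzd9. Ndufs5 shared 41.2% of its stretches with BC002163. Atp5f1 shared 38.7% with other genes, among them Wdr77 and Gm42890, which overlap it on the opposite strand. The values of Ndufs5 and Atp5f1 are therefore uncertain. Ndufs1 shared 5.9%, and Cox6b2, Uqcr10 and Ndufa4 shared none. Exons of 24 members overlap a gene on the opposite strand, Ndufs1 among them (Eef1b2 and Ino80dos), and the sources used here do not say whether strand was kept.

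Genes around the same complexes were followed from a list. The 4 genes of complex II, which takes electrons from succinate, held 2 lower and 2 higher values around a median log2 ratio of -0.0091, from Sdhc at 106.77 and 98.54 FPKM to Sdha at 109.43 and 118.94 FPKM. Of 6 other subunits and carriers, 4 were lower and 2 higher. Atpif1, which inhibits ATP hydrolysis by ATP synthase, was 79.09 FPKM in control and 64.22 FPKM with Eomes, a log2 ratio of -0.30 and the lowest of them, followed by Usmg5 at 303.84 and 277.86 FPKM. Cycs, cytochrome c, was 95.3 and 97.77 FPKM. The 13 subunits encoded by mitochondrial DNA were not analysed here.

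Of 45 assembly factors, 20 were lower, 24 were higher and 1 was equal. The median log2 ratio was 0.029, with 1 over 1.5-fold lower, where 5.19% of all expressed genes were lower by that margin. For complex I, 8 of 13 were lower. Ndufaf4 was 7.25 FPKM in control and 10.62 FPKM with Eomes, a log2 ratio of 0.55, and Nubpl, which delivers iron-sulfur clusters, was 8.88 and 7.43 FPKM. For complex IV, 10 of 23 were lower, 12 higher and 1 equal. Pet117 was 3.75 FPKM in control and 1.42 FPKM with Eomes, a log2 ratio of -1.40, and Cox14 was 33.06 and 26.01 FPKM. Cox11, which inserts copper, was 6.51 and 8.13 FPKM, and Cox18 was 14.59 and 17.54 FPKM. Of 6 factors for complex III, 4 were higher, led by Lyrm7 at 1.35 and 1.66 FPKM. The 3 factors for complex V were all higher, with log2 ratios from 0.082 (Atpaf2) to 0.15 (Tmem70).

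The ribosomal protein genes, also short and highly expressed, were set beside the members as a description. Of 47 cytosolic ribosomal protein genes named Rpl, those of the large subunit, 38 were lower with a median log2 ratio of -0.074. This median was close to that of the respiratory genes, and centring on length gave 0.0004. Genes of the small subunit (named Rps) were not in this set. Of 78 mitochondrial ribosomal protein genes, 46 were lower and 32 were higher, and the median was -0.012. Their median length was 1253 bases, and the median ratio was 0.041 after centring on length. No test of a difference between these sets was possible with 1 library per condition.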

How the data were processed

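Total RNA of 1 control and 1 Eomes-overexpressing culture was sequenced by the authors. Reads were filtered, mapped to mm10 with HISAT and Bowtie2, and quantified with RSEM. The authors deposited FPKM for each gene symbol in each library, rounded to 2 decimals, which their methods call RPKM. Symbols turned into dates (20 and 19) were left out. Log2 ratios came from scripts in Python 3.11.15 with pandas 2.3.3 and numpy 2.4.6; intervals used scipy 1.17.1 and figures matplotlib 3.10.9. Values not listed were set to 0.01 FPKM. With 1 library per condition no test was made.

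Length and GC content came from the longest protein-coding RefSeq-matched transcript in GENCODE vM21 (mm10), which gave values for all 73 members and 9835 of 9925 expressed genes. Approximate reads were FPKM times the shortest such transcript times the recovered depth, with 95% Clopper-Pearson intervals that cover counting error only. Depth was read from the steps between single-read values of lowly expressed genes. The steps were tested on simulated data.

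Members, lists and motifs were chosen with earlier results of these data known. Named genes are the core subunits, the paralogue families, in each complex the 3 highest in level and the 3 highest and 3 lowest in ratio at a mean of at least 5 FPKM, members past 1.5-fold, those next to the minimum, and in other lists up to 2 each way. Other names were added after their values were seen. The values of 1 member are not reported here on their own. The alternatives tried were pseudocounts (0.1 and 1), no minimum, a mean of at least 5 FPKM, leaving out members with over 10% shared sequence, 3 scalings, and centring by GC content, length or level in 20 bins.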

Additional observations from a re-analysis of the deposited data

How the results depend on the processing

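Of 99 recomputed values (9 results under 11 alternatives), 87 stayed within the limits set and 12 did not. The limit for a count was 1.5 times either way. For a median it was the 95% range that the ranks of the members give for it, which describes genes, not replicates. This range was -0.0962 to -0.0423 over all members, narrower than their spread. For the 8 complex III genes it was -0.2705 to 0.1322, their lowest and highest ratio, so that staying within it says little. Centring on transcript length moved the median of complex III from -0.0794 to -0.0038 and that of complex IV from -0.0971 to -0.0092. Both counted as within the limits. Without a minimum value, 2 members were over 1.5-fold lower (Cox4i2 and Cox6b2), 2 over 1.5-fold higher (Cox6a2 and Ndufa4l2) and 4 over 1.2-fold higher, where the added genes were at or under 0.14 FPKM. With a mean of at least 5 FPKM, 0 were over 1.5-fold lower, since Cox6b2 was left out. Scaling each library to its sum gave a median log2 ratio of -0.0368 over all members. Centring on GC content gave -0.0275 over all members, -0.022 in complex I and 0 members over 1.2-fold higher. Centring on transcript length gave 0.0065 over all members, 0.0013 in complex I and 0.0265 in complex V. It left 1 member over 1.2-fold lower and 2 over 1.2-fold higher. Centring on mean level was chosen after seeing the data and gave a median of -0.0478. The largest shift of the median of all expressed genes by a scaling was 0.0319. Depth limits Cox6b2 and Cox7a1, at about 15 to 41 reads per library. No paired analysis was possible because each condition has 1 library.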

Other observations

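Of 9 nuclear regulators of mitochondrial genes that were looked up, Ppargc1a was listed in neither library. The other 8 summed to 333.57 FPKM in control and 323.82 FPKM with Eomes, so that the sum was lower although most single genes were higher. Among all 9925 expressed genes, 4887 were higher with Eomes. Of 8 expressed regulators, 6 were higher and 2 lower, with a median log2 ratio of 0.11, and of 0.12 after centring on GC content. Gabpa, a subunit of GABP, was 10.92 FPKM in control and 13.3 FPKM with Eomes, a log2 ratio of 0.28. Gabpa has 41.4% GC, and its log2 ratio was 0.057 after centring on GC content. Its exons overlap those of Atp5j on the opposite strand. Ppargc1b, a coactivator of mitochondrial biogenesis, was 2.32 and 2.79 FPKM. Nrf1 was 21.17 and 20.6 FPKM, and Myc, which drives growth and mitochondrial biogenesis in activated T cells, was 186.34 and 161.54 FPKM, a log2 ratio of -0.21.

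Of 8 genes for transcription and replication of mitochondrial DNA, 4 were higher and 4 lower. Tfb1m was 7.7 FPKM in control and 9.7 FPKM with Eomes, a log2 ratio of 0.33, and Tfam, which packages mitochondrial DNA, was 13.07 and 15.23 FPKM. Polg2, the accessory subunit of the mitochondrial DNA polymerase, was 4.9 and 3.78 FPKM, a log2 ratio of -0.37, and Polg was 15.45 and 14.11 FPKM. No expressed gene of either list was over 1.5-fold apart, where 5.19% of all expressed genes were over 1.5-fold lower and 2.46% higher. Lists this short say little beside these shares.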
